A study of Mus musculus with 4 samples.

Results

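The transcripts described here are those of 10 genes that act on the elongation of RNA polymerase II (Pol II): Phf3, Cdk9, Ccnt1, Ccnt2, Hexim1, Larp7, Supt4a, Supt5, Supt6 and Nelfe. They were taken by symbol from the 16861 genes listed in each library, and each of the 10 was found. The choice was made with the comparison of SN with NSN oocytes already known, so the differences of these genes between the groups are given as description. Where a fit over all genes called one of them, the call is given beside the share of all genes called and supports nothing.

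Pol II pauses soon after it starts on many genes, held by the DSIF and NELF factors, and the kinase P-TEFb (Cdk9 with a T-type cyclin) releases it. The 7SK ribonucleoprotein keeps part of P-TEFb inactive. Spt6, the PAF1 complex, FACT and TFIIS then travel with or act on the moving polymerase, and PHF3 binds the phosphorylated tail of Pol II through its SPOC domain. In the mouse ovary, fully grown oocytes shut down transcription as their chromatin condenses round the nucleolus, so that later levels rest largely on stored transcripts.

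Fully grown germinal vesicle (GV) oocytes, which are arrested before meiotic maturation, came from antral follicles of 3-week-old female C57BL/6J mice with no transgene or treatment. After removal of cumulus cells, The oocytes were stained with Hoechst and sorted one by one on whether condensed DNA encircled the nucleolus (surrounded nucleolus, SN) or not (NSN). There were 2 NSN and 2 SN libraries, each a pool of 15 oocytes amplified by Smart-seq2 from the poly(A) tail. The labels do not say which animals gave which pool, so the spread between the libraries of a group may be technical.

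Levels are the FPKM that the authors deposited, in which read pairs are divided by gene length and by library depth. They are shares of a library, so they do not show the amount of RNA per oocyte, and a fall of abundant transcripts raises the FPKM of the others. The 4 libraries held 17069772 to 17998361 read pairs. The 100 most abundant genes took 38.7% to 39.8% of them in NSN and 35.3% to 35.4% in SN oocytes. All 10 oocyte markers were listed and their summed FPKM was 18910 to 20030 in NSN and 12360 to 13250 in SN oocytes. Of 11 granulosa and cumulus cell markers 8 were listed, with summed FPKM of 9.59 and 13.5 in NSN and 14.0 and 13.3 in SN oocytes. Their highest member was Cyp19a1 at a mean FPKM of 7.62, and Foxl2, Amh and Ptx3 were not among the listed genes. Of 5 blood cell markers only Cd68 was listed, with 0.594 to 0.622 in NSN and 0.653 to 0.972 in SN oocytes, and 2 of 5 stroma and theca markers had a summed FPKM of at most 0.245 in any library. The part of these shifts in the results below was not tested.

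The stretch of Phf3 that the primers of the study's RT-PCR amplify is shown first, because Phf3 was the only one of the 10 genes in that RT-PCR panel and because it marks which transcripts such a check can see. It is 109 bases long, with the primer sites in capitals, and was read 5′ to 3′ from the sense strand of the transcript that the annotation marks as canonical:

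Phf3 amplicon: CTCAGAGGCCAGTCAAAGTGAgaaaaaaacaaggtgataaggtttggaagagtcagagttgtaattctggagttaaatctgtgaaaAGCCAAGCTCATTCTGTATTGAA

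In GRCm39 it lies on the minus strand at chr1:30869383-30869491, within the coding sequence of exon 3 of 15. Both primer sites were present in 5 of the 17 transcripts annotated for Phf3. The RT-PCR values themselves were not analysed here.

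Phf3 (ENSMUSG00000048874.17, chr1:30841420-30913262, minus strand) had the widest difference between groups of the 9 genes tested. Its FPKM was 7.98 and 11.7 in NSN replicate 1 and NSN replicate 2, and 19.96 and 18.6 in the SN libraries in the same order. Both SN libraries were above both NSN libraries, and the NSN pair differed more between themselves than the SN pair. The mean rose from 9.85 ± 2.65 (SD, n = 2) to 19.3 ± 0.993 (SD, n = 2), a ratio of 1.95. On the scale of log2(FPKM + 0.5), on which all differences below are given, SN minus NSN was 0.96 with a standard error (SE) of 0.18. Between 1051 and 2578 read pairs stood behind each value, so counting error was small against the gap between the NSN libraries.

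The difference of Phf3 lay between 0.69 and 1.22 when each library was left out in turn. It was 0.81 after scaling the libraries to equal medians, 0.77 after quantile normalization, 0.87 with totals that leave out the 100 most abundant genes and 0.72 after a correction for gene length. Phf3 was long, and 93.6% of tested genes were shorter. The 2332 longest genes, with 4809 to 49875 bases, had a median difference of 0.23 against 0.14 for all 11672 genes tested. The value of Phf3 was above that of 99.8% of those long genes and of 99.3% of all genes tested. The exons of Phf3 overlap no other annotated gene. The absolute log2 difference between replicates was 0.53 in NSN and 0.10 in SN oocytes for Phf3, against medians of 0.15 and 0.14 over all genes tested.

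**Figure D1:**
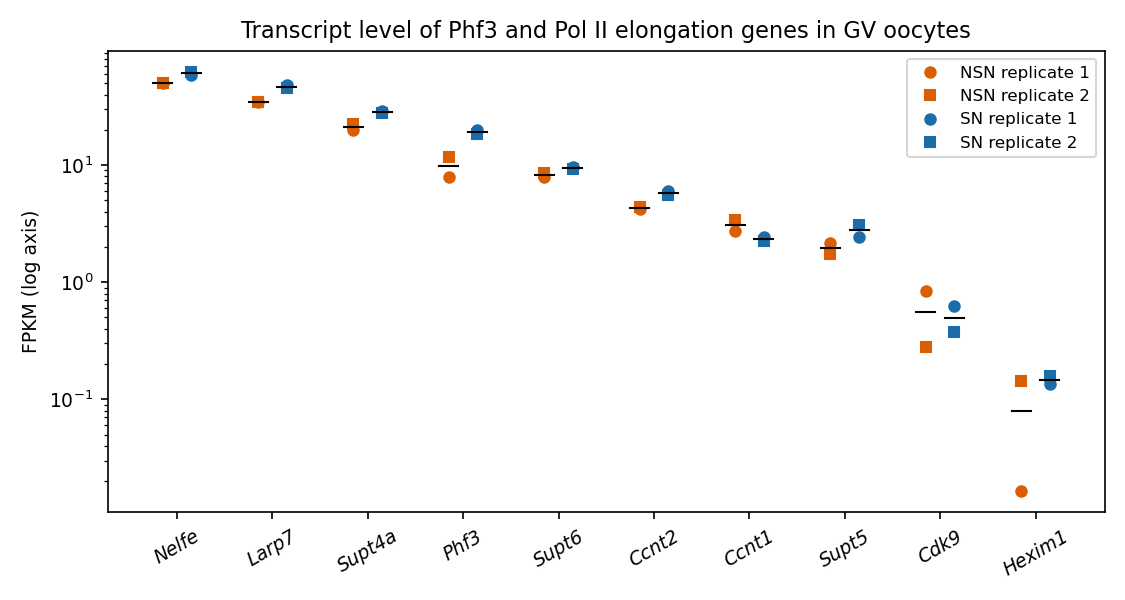
Each point is the FPKM of a gene in 1 library, on a log axis, with circles for replicate 1, squares for replicate 2 and a bar at the mean of the 2 libraries. Genes are ordered by their mean over 4 libraries, from Nelfe at 55.6 to Hexim1 at 0.113, and the SN points of Phf3 (19.96 and 18.6) stand clear of its NSN points (7.98 and 11.7).

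P-TEFb is made of the kinase Cdk9 and cyclin T1 or T2, encoded by Ccnt1 and Ccnt2. The 2 cyclin genes lay on opposite sides of their NSN levels in SN oocytes. Neither was called by limma on the FPKM of genes with a mean of at least 0.5, at an adjusted p under 0.05. Each was called in 1 of the fits on read pairs given below. With a minimum mean FPKM of 5, limma also called Ccnt2. Ccnt1 (chr15:98436570-98468804, minus strand) had FPKM of 2.74 and 3.40 in NSN and 2.44 and 2.27 in SN oocytes. Each SN library lay below each NSN library, which among the 9 genes tested was so for Ccnt1 alone. Its difference was -0.32 (SE 0.16), and -0.45 to -0.18 with each library left out.

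Ccnt2 (chr1:127701901-127735798, plus strand) had FPKM of 4.19 and 4.37 in NSN and 6.06 and 5.57 in SN oocytes. Here both SN libraries lay above both NSN libraries, by more than either pair differed within itself. The difference was 0.40 (SE 0.12), and 0.35 to 0.46 with each library left out. The ratio of Ccnt2 to Ccnt1 within a library, which no single scale factor per library alters, was 1.53 and 1.29 in NSN and 2.48 and 2.46 in SN oocytes. Its geometric mean was therefore 1.76-fold higher in SN oocytes, and the groups did not overlap. Among single genes 62.6% of those tested did not overlap, and no such share was computed for ratios.

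Cdk9 (chr2:32595794-32603589, minus strand), the kinase of P-TEFb, was low. Its FPKM was 0.834 and 0.281 in NSN and 0.621 and 0.372 in SN oocytes, from 26, 9, 19 and 12 read pairs. The groups overlapped, and the NSN libraries differed 2.97-fold. Pooled over libraries, 35 read pairs in NSN stood against 31 in SN oocytes, a ratio of 0.892 with an exact 95% interval of 0.532 to 1.49 that covers counting error only. Its direction changed from -0.43 to 0.34 with the library left out, and no difference was detectable at this depth.

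Because Ccnt1 and Ccnt2 encode partners of the same kinase and differed in opposite directions, the 250 bases before the start of each are shown, from RefSeq with positions on GRCm39. Capitals mark every match, on either strand, to the GC box (letters GGGCGG), the CCAAT box (its own letters) or the ETS core (letters CCGGAA), and overlapping matches run together. The window of Ccnt1 is chr15:98465618-98465867 on the minus strand and that of Ccnt2 is chr1:127701651-127701900 on the plus strand, each written 5′ to 3′ in the direction of the gene. The window of Ccnt1 lies inside the span that GENCODE gives the gene, whose first annotated start is further upstream:

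Ccnt1 promoter: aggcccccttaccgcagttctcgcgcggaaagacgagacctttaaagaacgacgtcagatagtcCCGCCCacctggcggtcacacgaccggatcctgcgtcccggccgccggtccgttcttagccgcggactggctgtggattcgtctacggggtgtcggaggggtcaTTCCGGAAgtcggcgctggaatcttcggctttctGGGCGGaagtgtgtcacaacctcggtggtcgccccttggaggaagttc

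Ccnt2 promoter: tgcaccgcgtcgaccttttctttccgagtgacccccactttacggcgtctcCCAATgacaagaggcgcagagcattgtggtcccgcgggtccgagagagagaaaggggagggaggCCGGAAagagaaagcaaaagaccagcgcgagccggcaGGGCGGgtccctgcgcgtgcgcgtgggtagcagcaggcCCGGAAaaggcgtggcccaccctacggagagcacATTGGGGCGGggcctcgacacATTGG

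Both windows held 2 GC boxes and 2 ETS cores. Ccnt2 also held 3 CCAAT boxes and Ccnt1 held 0. Over the 32851 promoter windows of the same length, 32.7% held a GC box, 12.03% an ETS core and 33.9% a CCAAT box. Such windows were found for 8 of the 10 genes, all but Phf3 and Nelfe. Like that of Ccnt1, those of Cdk9 and Supt6 lie inside the span that GENCODE gives the gene. The windows of Hexim1, Larp7, Supt4a and Supt5 overlap that span in part. A GC box was present in each of the 8 except that of Supt6. The exact letters TATAAA of a TATA box were in 0 of the 8, against 12.4% of all windows. Variants of these letters were not searched. A match describes letters only.

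Larp7 (chr3:127329247-127347017, minus strand) encodes the protein that binds and steadies 7SK RNA. Its FPKM was 34.7 and 34.6 in NSN and 47.8 and 45.2 in SN oocytes. The NSN libraries differed by a factor of 1.004 and the SN libraries by 1.06, and the gap between groups exceeded both. The difference was 0.42 (SE 0.084), with 0.38 to 0.46 on leaving out each library and 0.27 under median scaling.

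Hexim1 (chr11:103007057-103010551, plus strand) encodes the inhibitor that 7SK RNA brings to P-TEFb. It had FPKM of 0.016 and 0.144 in NSN and 0.134 and 0.159 in SN oocytes, from 1, 9, 8 and 10 read pairs. NSN replicate 1 was low and the other NSN library lay within the range of the SN libraries. It fell under the minimum mean FPKM of 0.5 and was not tested. The pooled 10 against 18 read pairs give a ratio of 1.81 with an exact 95% interval of 0.794 to 4.40, which includes no change. Its paralogue Hexim2, with the same function, was far higher at 20.5 and 21.1 in NSN and 25.2 and 26.6 in SN oocytes. Of their exon bases, 29.0% for Hexim1 and 28.0% for Hexim2 also lie in the gene model Gm57409, and counting ignored strand.

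The other 7SK genes were not called. Hexim2 differed by 0.31 (adjusted p = 0.078, limma) and Mepce, whose protein caps 7SK RNA, by 0.25 (adjusted p = 0.213). Rn7sk, the 7SK RNA itself, has no poly(A) tail, and had 4 and 9 read pairs in NSN and 4 and 2 in SN oocytes, so its value of -0.63 (adjusted p = 0.211) rests on very few.

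DSIF is a pair of Supt4a and Supt5, which both holds the paused polymerase and, once phosphorylated, helps it along. Supt4a (chr11:87628357-87635394, plus strand) had FPKM of 19.9 and 22.5 in NSN and 29.0 and 27.9 in SN oocytes. Supt5 (chr7:28014312-28038205, minus strand) had 2.16 and 1.75 in NSN and 2.44 and 3.09 in SN oocytes. For both genes the SN libraries were above the NSN libraries, narrowly so for Supt5, whose SN libraries differed 1.27-fold.

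Their differences were close, at 0.42 (SE 0.099) for Supt4a and 0.41 (SE 0.18) for Supt5, and the ratio of Supt4a to Supt5 within a library overlapped between groups (9.22 and 12.9 in NSN, 11.9 and 9.03 in SN oocytes). Supt4b, a processed copy of Supt4a, was at 0.159 to 1.31 FPKM with overlapping groups (adjusted p = 0.924, limma), and its value of 0.08 turned to -0.01 under median scaling and ran from -0.65 to 0.80 with each library left out. How reads were divided between the copies was not tested.

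Nelfe (chr17:35068650-35078716, plus strand) encodes the RNA-binding subunit of NELF. Its FPKM was 50.3 and 50.7 in NSN and 58.8 and 62.7 in SN oocytes, with both SN libraries higher, and its difference was 0.26 (SE 0.081). Of its exon bases 33.1% also lie in other gene models, Cfb and Skic2 among them.

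The other 3 subunits had lower values in SN than in NSN oocytes. Of the 4 NELF genes 0 were called by limma, against 7.93% of all genes tested. At an unadjusted p under 0.05 were 3 of 4, against 31.7% of all genes. Nelfcd had FPKM of 7.85 and 7.01 in NSN and 5.41 and 5.23 in SN oocytes (-0.44, adjusted p = 0.068). Nelfb had 1.87 and 1.52 against 1.09 and 0.759 (-0.63, adjusted p = 0.085). Nelfa overlapped between groups at 35.6, 40.0, 37.2 and 31.5 (-0.14, adjusted p = 0.432). Of their exon bases, 37.2% for Nelfa, 22.1% for Nelfcd and 0% for Nelfb also lie in other gene models. The ratio of Nelfe to Nelfcd was 6.40 and 7.23 in NSN and 10.9 and 11.99 in SN oocytes, and that of Nelfe to Nelfb was 26.8 and 33.2 against 54.1 and 82.6. The ratio of Nelfe to Nelfa differed less, at 1.41 and 1.27 in NSN against 1.58 and 1.99 in SN oocytes. None of the 3 ratios overlapped between groups. Of all single genes tested, 62.6% did not overlap either, and no such share was computed for ratios.

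**Figure D2:**
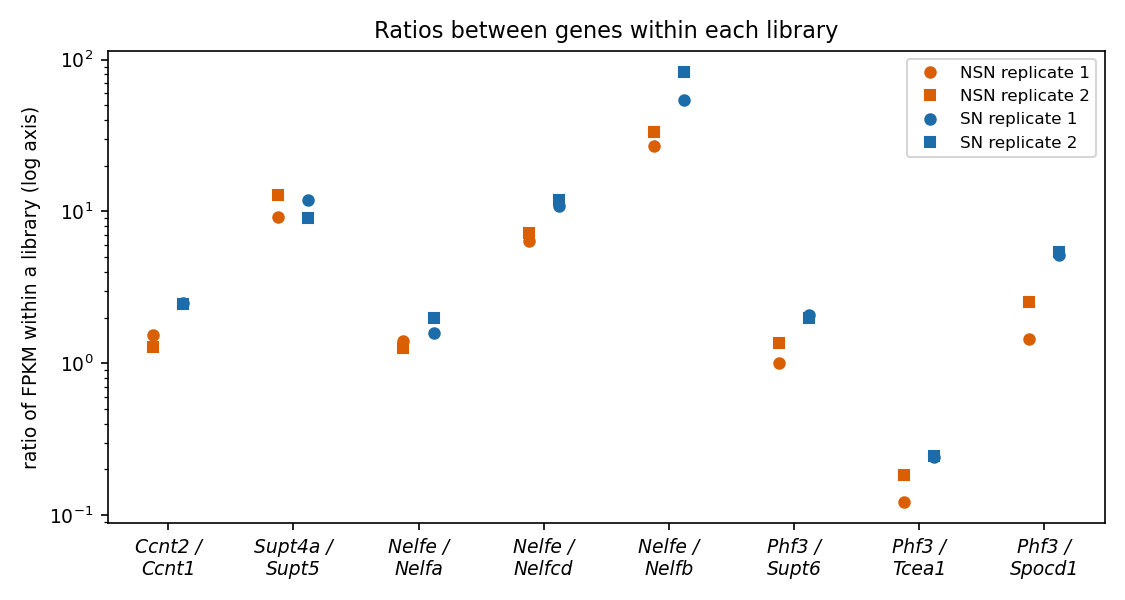
Each point is the ratio of the FPKM of 2 genes within 1 library, on a log axis, with circles for replicate 1 and squares for replicate 2. The ratio of Ccnt2 to Ccnt1 was 1.53 and 1.29 in NSN against 2.48 and 2.46 in SN oocytes, while that of Supt4a to Supt5 overlapped between groups.

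Supt6 (chr11:78097572-78137037, minus strand) encodes the histone chaperone Spt6 that moves with the polymerase. It had FPKM of 7.94 and 8.58 in NSN and 9.63 and 9.27 in SN oocytes. The SN libraries were both above, but the difference of 0.18 (SE 0.11) was near the median of all genes, 0.14. It fell to 0.04 under median scaling and turned to -0.003 under quantile normalization and to -0.03 after the correction for gene length. Its partner Iws1 differed by 0.49 (adjusted p = 0.053, limma). The ratio of Phf3 to Supt6 was 1.004 and 1.37 in NSN and 2.07 and 2.002 in SN oocytes.

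Of the other 5 genes with a SPOC domain, 3 were tested and 0 were called by limma, against 7.93% of all genes. At an unadjusted p under 0.05 was 1 (Spocd1), against 31.7%. Spocd1, whose protein acts in germline DNA methylation directed by small RNAs, had FPKM of 5.55 and 4.63 in NSN and 3.88 and 3.41 in SN oocytes, with both SN libraries lower (-0.43, adjusted p = 0.106, limma). Rbm15, which helps to place methyl marks on RNA, differed by 0.10 (adjusted p = 0.698) with overlapping groups. Its paralogue Rbm15b differed by 0.20 (adjusted p = 0.464), and 62.0% of its exon bases lie in other gene models. Dido1 (0.428 to 0.579 FPKM) and Spen (0.076 to 0.113) were under the minimum. The ratio of Phf3 to Spocd1 was 1.44 and 2.53 in NSN and 5.15 and 5.44 in SN oocytes. The ratio of Phf3 to Tcea1, the gene for TFIIS, was 0.123 and 0.184 in NSN and 0.242 and 0.246 in SN oocytes.

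The order of the 10 genes by mean FPKM over 4 libraries was Nelfe (55.6), Larp7 (40.6), Supt4a (24.8), Phf3 (14.6), Supt6 (8.85), Ccnt2 (5.05), Ccnt1 (2.71), Supt5 (2.36), Cdk9 (0.527) and Hexim1 (0.113). The ranges of neighbours overlapped for Supt4a and Phf3, Phf3 and Supt6, and Ccnt1 and Supt5. Within NSN replicates 1 and 2 and SN replicate 1 the order was the same, whereas in SN replicate 2 Supt5 was above Ccnt1. Nelfe was above 93.2% of listed genes in mean FPKM, Phf3 above 81.3%, Cdk9 above 31.6% and Hexim1 above 9.75%.

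Levels between genes depend on the gene length used. With all exon bases of the later annotation as the length, Larp7 (22.0) came before Nelfe (14.0), while the other 8 kept their ranks. Phf3 (7.67) and Supt6 (7.62) were then nearly level, as were Ccnt2 (2.16) and Ccnt1 (2.07). The ratio of SN to NSN FPKM does not depend on that length, whereas log2(FPKM + 0.5) differences of low genes do, through the pseudocount and the minimum.

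Of the 9 genes tested, 2 passed an adjusted p under 0.05 with a fold change of at least 1.2 (limma), Phf3 and Larp7, both higher in SN oocytes, and 0 were lower. Over all 11672 genes tested, 5.95% were called higher, 1.98% lower and 7.93% in either direction. Both SN libraries lay above both NSN libraries for 7 of the 9, against 44.8% of all genes tested, below for 1, against 17.8%, and on either side for 8, against 62.6%. The mean was higher in SN oocytes for 7, against 66.7% of all genes, and 5 had an unadjusted p under 0.05, against 31.7%. The median difference of the 9 was 0.40, against 0.14. As the genes were chosen on this contrast, nothing is read from these counts.

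Both calls depended on the scaling and, like the calls over all genes, on single libraries. Under median scaling 0 of the 9 genes were called (4 at an unadjusted p under 0.05) against 2.2% of all genes, 0.668% higher (78) and 1.53% lower (179) in SN oocytes. The median over all genes moved from 0.14 to 0.005 with that scaling. With limma's voom on the read pairs, Phf3, Ccnt2 and Larp7 were called higher and 0 lower, against 15.1% and 4.58% of all genes, 19.7% in either direction. With voom and median scaling, Phf3 was called higher and Ccnt1 lower, against 6.38% and 8.26% of all genes, 14.6% in either direction. Which genes were called changed with the library left out, over all genes as well as among the 9. The difference in these refits ran from 0.69 to 1.22 for Phf3 and from 0.38 to 0.46 for Larp7. A lone library was there taken to vary like the other group.

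**Figure D3:**
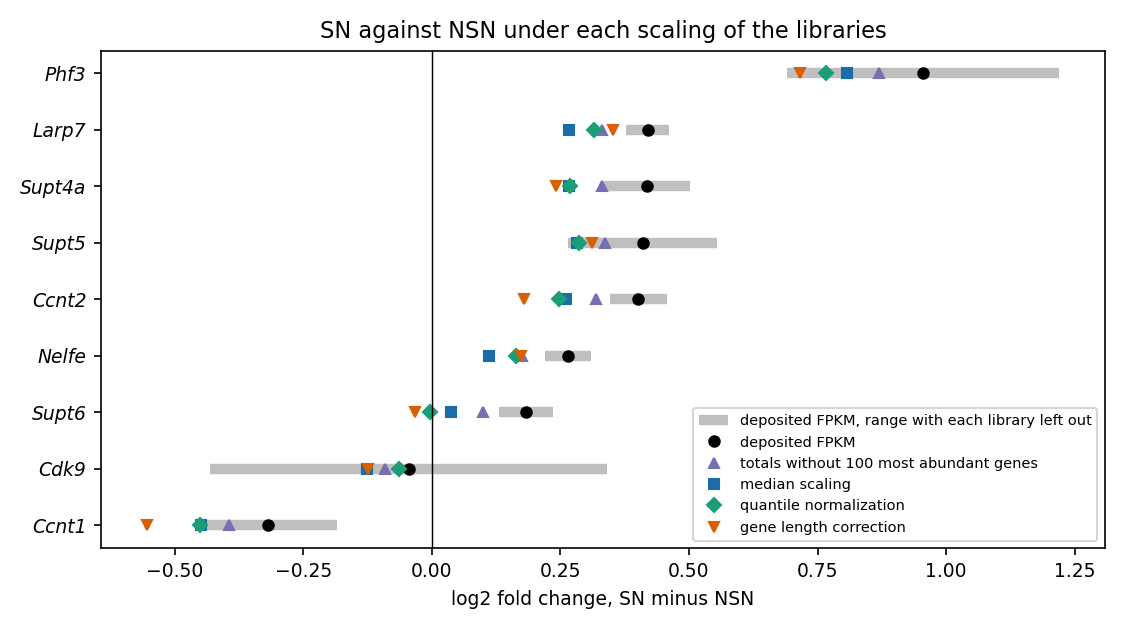
The difference of each of the 9 tested genes, log2 SN minus NSN, is shown under 5 treatments of the libraries, and the grey bar spans the values with each library left out. Phf3 stays between 0.72 and 0.96 under the 5, Ccnt1 stays below 0 from -0.55 to -0.32, and Supt6 lies on either side of 0.

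To place the 10 genes, a wider list of 59 elongation genes was used, fixed by known function with earlier results in view. All 59 were listed and 51 were tested. Of the 51, 5 were called higher and 1 lower, against 5.95% and 1.98% of all genes tested. Both SN libraries were above both NSN libraries for 29, against 44.8% of all genes, and below for 8, against 17.8%. The 49 genes other than the 10 gave 42 tested, of which 3 were called higher and 1 lower, or 9.52% against the 7.93% of all genes. Their median difference was 0.18 against 0.14, and 0.06 against 0.005 under median scaling. The mean was higher in SN oocytes for 37 of the 51, against 66.7% of all genes tested. Under median scaling it was higher for 31, against 5910 of all 11672 genes. After the length correction it was higher for 26, where the median difference over all genes was 0.004.

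The calls outside the 10 genes fell in the PAF1 complex, which loads modifying enzymes onto the moving polymerase, and in FACT, which takes histones apart and rebuilds them ahead of and behind it. Paf1 rose from 21.4 and 22.4 FPKM in NSN to 29.95 and 29.99 in SN oocytes (0.44, adjusted p = 0.042, limma). Leo1 rose from 39.2 and 41.7 to 54.2 and 56.6 (0.45, adjusted p = 0.040). Skic8, whose protein also serves the RNA-degrading SKI complex, fell from 4.50 and 3.73 to 2.11 and 1.75 (-0.92, adjusted p = 0.038). The FACT subunit Supt16 rose from 18.2 and 22.8 to 32.4 and 30.5 (0.62, adjusted p = 0.044). Of the exon bases, 20.2% for Skic8 and 23.0% for Supt16 also lie in other gene models. The share was 0.276% for Paf1 and 0% for Leo1. Under median scaling the fall of Skic8 was called and the 3 rises were not, at 0.29 for Paf1, 0.30 for Leo1 and 0.46 for Supt16. As over all genes, which of these were called changed with the library left out. The differences then ran from 0.41 to 0.48 for Paf1 and from 0.40 to 0.50 for Leo1. They ran from -1.05 to -0.80 for Skic8 and from 0.46 to 0.78 for Supt16.

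By group, 1 of 4 tested SPOC domain genes (Phf3) and 1 of 7 P-TEFb and 7SK genes (Larp7) were called, against 7.93% of all genes tested. The PAF1 complex had 2 higher and 1 lower of 6, and FACT 1 of 2. In the groups of DSIF (3 tested), NELF (4), Spt6 and its partner (2), TFIIS and elongins (5), later kinases of the Pol II tail (3) and its phosphatases and binding proteins (7), limma called 0. At an unadjusted p under 0.05 those groups held 1, 3, 1, 2, 1 and 3 genes, against 31.7% of all genes tested. Voom called 0, 2, 1, 2, 2 and 3, against 19.7% of all genes. Nothing is read from counts in groups this small.

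**Figure D4:**
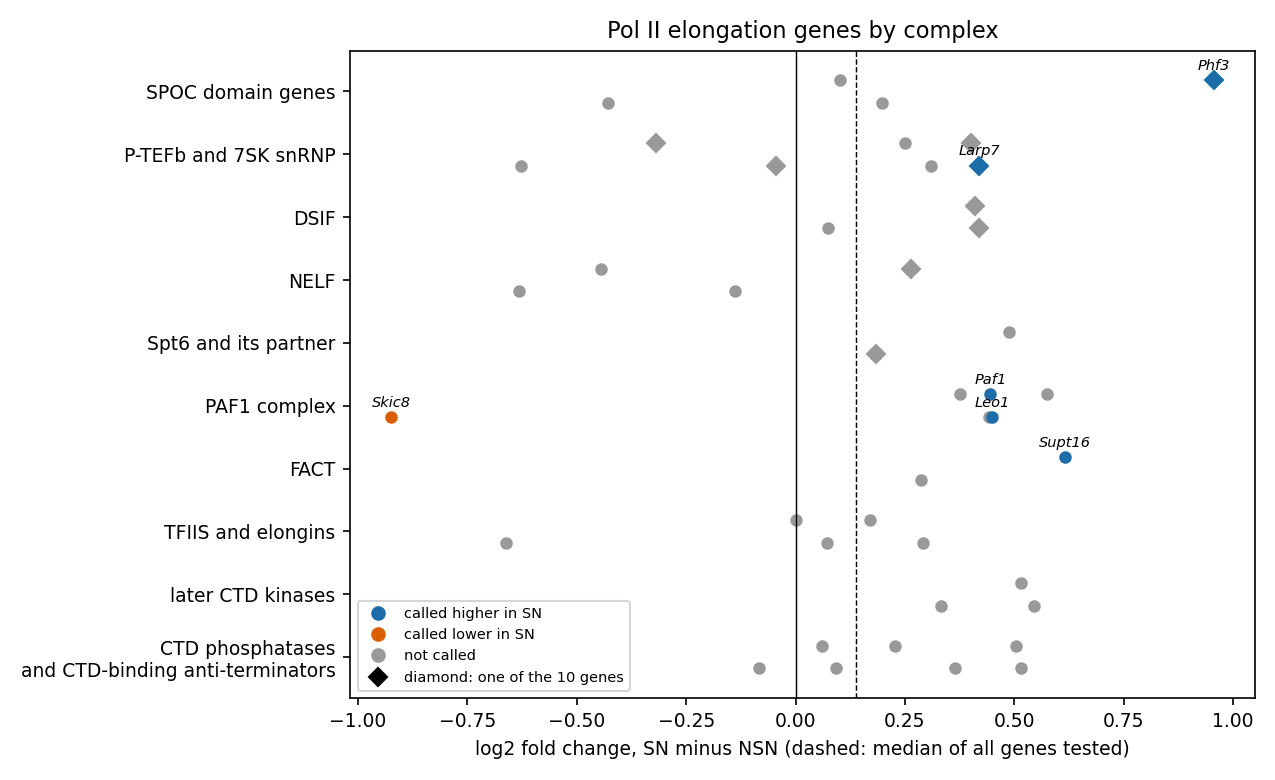
Each point is a tested elongation gene of the groups named above, placed by its log2 difference SN minus NSN and grouped by complex, with diamonds for the genes described here and colours for calls by limma. Phf3 (0.96) and Skic8 (-0.92) are at the ends, and the dashed line is the median of all genes tested, 0.14.

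The genes whose profile over the 4 libraries came closest to that of Phf3 were named by the Euclidean distance between log2(FPKM + 0.5) values, each centred on the mean of its gene, among the 9807 genes whose mean FPKM was 1 or more. They were Sirpb1a (distance 0.042), Gm44150 (0.052), Gadd45a (0.055), Ythdc1 (0.068) and Esyt2 (0.082), against a median distance of 0.91. Ythdc1, which reads methyl marks on RNA in the nucleus, also had a like level, with FPKM of 7.86 and 10.9 in NSN and 19.2 and 17.2 in SN oocytes. Gadd45a had only 10, 20, 38 and 39 read pairs and Sirpb1a 13, 25, 51 and 48. Over only 4 libraries such a likeness is common, and 1904 genes had a Pearson correlation over 0.95 with Phf3.

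**Figure D5:**
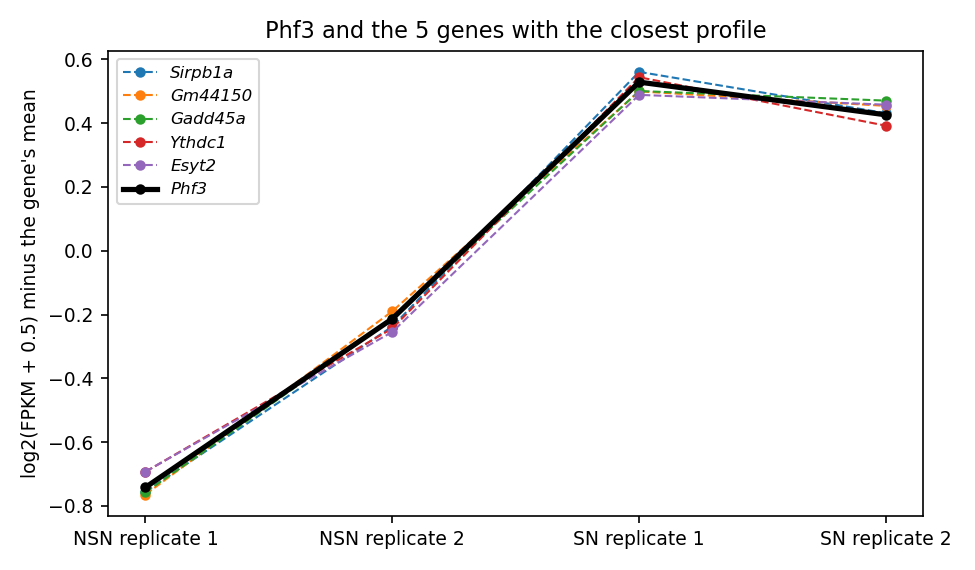
The lines join the values of a gene, log2(FPKM + 0.5) minus its mean, over the 4 libraries, which have no order within a group. Phf3 (thick line) and the 5 closest genes are lowest in NSN replicate 1 and highest in SN replicate 1, and their distances from Phf3 are at most 0.082.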

How the data were processed

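RNA from 4 libraries (2 NSN, 2 SN) was measured by Smart-seq2 with 18 cycles of PCR. Per the methods and the submitters' processing notes, the authors trimmed reads (Trim Galore 0.6.10), mapped them to GRCm39 (HISAT2), counted exonic read pairs without strand (featureCounts, minimum mapping quality 10, primary alignments) and deposited FPKM from a script of their own. The protocol speaks of 3 samples per group, and 2 per group were analysed here.

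Whole read pairs and the authors' gene lengths were recovered for 16842 of 16861 genes (99.9%, tolerance 1e-06) from library totals set on 5 mitochondrial tRNA genes. Totals were 17408945 and 17911559 (NSN) and 17069772 and 17998361 (SN). At these depths 3 read pairs on 1 kb give an FPKM of 0.167 to 0.176. Intervals cover counting error only, as amplified read pairs are not independent molecules.

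SN was compared with NSN on log2(FPKM + 0.5) for the 11672 genes whose mean FPKM reached 0.5, with limma 3.58.1 in R 4.3.3 (lmFit, eBayes with a variance trend), two-sided with Benjamini-Hochberg adjustment over all genes tested. The pseudocount understates changes of low genes. A gene was called at a fold change of 1.2 or more with its adjusted p under 0.05. For a single value, an exact permutation test of 2 against 2 libraries cannot go below 0.333 and was not used. The fitting procedure was tested on simulated data. Other values used Python 3.11.15, numpy 2.4.6, pandas 2.3.3, scipy 1.17.1 and matplotlib 3.10.9. Positions and exon overlaps came from a later GENCODE release on GRCm39, and promoter sequences from RefSeq (GRCm38.p6 table), each matched exactly once in GRCm39.

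The members and lists were chosen with earlier results of these data known. Named genes were the 10 members, elongation list genes past both thresholds, all SPOC domain, NELF and 7SK genes, and the 5 genes nearest Phf3 in profile. Genes that a sentence sets beside a member (Iws1, Tcea1, Supt4b) were chosen after their values were seen. Alternatives were pseudocounts of 0.1 and 1, other filters, scalings, variance and length models, voom, thresholds, the replicate number as a block and each library left out. Refitting limma without each library and the exon-union lengths were added after seeing the data. The values of 1 group of the elongation list are not reported here on their own.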

Additional observations from a re-analysis of the deposited data

How the results depend on the processing

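Of all genes tested 926 were called, and 773 to 1247 with pseudocounts of 0.1 or 1, a minimum FPKM of 0.5 in each library or no fold threshold. The called counts over all genes, the 59 elongation genes and the 10 members were 257, 1 and 0 under median scaling, 230, 1 and 0 under quantile normalization, 248, 1 and 0 when the 100 most abundant genes were left out of the totals, and 143, 1 and 0 after the length correction. They were 1496, 13 and 5 at a mean FPKM of at least 5, 2370, 22 and 5 at an adjusted p under 0.1, and 76, 0 and 0 at a fold of at least 2. Where 5 members were called, they were Phf3, Ccnt2, Larp7, Supt4a and Nelfe, all higher in SN. Voom gave 2297, 22 and 3, and 1707, 14 and 2 with median scaling. With all listed genes or no variance trend, limma called 0, 0 and 0 (4092 and 3449 of all genes at an unadjusted p under 0.05, against 3695 in the comparison reported). Without 1 library the counts ran from 0 to 1685, 0 to 9 and 0 to 3, with 0 of all genes without NSN replicate 1 (2278 at an unadjusted p under 0.05) and 1685 without NSN replicate 2. The cause was not tested.

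The replicate numbers are tied to nothing in the labels, and the replicate differences of NSN and SN correlated at -0.07 across genes. Whether libraries with the same number were prepared together cannot be told from this. With the replicate number as a block, 422, 2 and 1 were called (Phf3 among the members), and 0, 0 and 0 with the block and the length correction together (2801 of all genes at an unadjusted p under 0.05).

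The median difference of the elongation list, 0.23, was 0.048 under the length correction with or without the block, 0.10 under median scaling, 0.11 under quantile normalization, 0.13 under voom with median scaling and 0.22 to 0.27 with each library left out. The number of its 51 tested genes higher in SN, 37, was 31 under median scaling, 26 after the length correction with or without the block, 19 at a mean FPKM of at least 5, where fewer were tested, and 35 to 37 with each library left out. Over all genes tested 66.7% were higher in SN, and 5910 of 11672 under median scaling. Members higher in SN numbered 6 to 8 under all settings, 7 to 8 with each library left out. Among the members and the genes named by rule, directions turned for Supt6 (-0.00338 under quantile normalization, -0.033 after length correction with or without the block), Rbm15 (-0.030 under median scaling, -0.031 after length correction with or without the block, -0.041 under quantile normalization and under voom with median scaling, -0.053 to 0.258 with each library left out), Rbm15b (-0.019 after length correction with or without the block) and Cdk9 (-0.43 to 0.34 with each library left out, above 0 without NSN replicate 1 or SN replicate 2). Phf3, Ccnt1, Ccnt2, Larp7, Supt4a, Supt5 and Nelfe kept their direction under each setting in which they were tested, and Ccnt1 and Supt5 were under the minimum mean FPKM of 5. Supt4b, set beside Supt4a, turned to -0.01 under median scaling, to -0.14 after the length correction, and ran from -0.65 to 0.80 with each library left out.

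With 2 libraries per group the spread rests on few degrees of freedom, and values behind few read pairs (Cdk9, Hexim1, Rn7sk) were limited by depth.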
